A study of Canis lupus familiaris with 23 samples.

Results

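Hair keratins and hair shaft proteins were followed as a set of 31 genes, among 20442 gene entries counted in dog skin, in isolated hair follicles and interfollicular epidermis, and in epidermal organoids grown from both. The set was defined by gene name and by no measured value, though with earlier results of these data known. It holds 9 type I hair keratins (KRT32, KRT33A, KRT34 to KRT40), 2 type II hair keratins (KRT82 and KRT84), 4 type I keratins of the inner root sheath (KRT25 to KRT28) and 3 type II keratins of that sheath (KRT71, KRT72 and KRT74). It also holds 8 keratin-associated proteins (KRTAP3-1, KRTAP7-1, KRTAP8-1, KRTAP11-1, KRTAP13-2, KRTAP16-1, KRTAP24-1 and KRTAP26-1) and 5 other genes of hair formation (TCHH, TCHHL1, PADI3, CRYM and HOXC13). A further 10 hair keratin and keratin-associated entries carry only provisional locus names in the files and are outside the 31.

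A hair shaft is built in the lower follicle, where type I and type II hair keratins pair into filaments that are embedded in a cross-linked matrix of keratin-associated proteins. The inner root sheath is a sleeve that moulds the growing shaft, and it uses its own keratins together with trichohyalin, the product of TCHH, which peptidylarginine deiminases such as PADI3 modify. HOXC13 is a homeobox transcription factor that switches on hair keratin genes, and in humans its loss leaves hair and nails defective.

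RNA abundance was measured by CEL-seq2, which reads transcripts from their 3′ ends, in 23 bulk libraries of 12 groups. Differentiation medium gave 6 libraries of follicle organoids at passages 3 to 6 and day 7, with 2 libraries in each of 3 forms: lacking Noggin, R-Spondin-1 and Forskolin, lacking Noggin and R-Spondin-1, and with none of these named as left out. Expansion cultures, also taken at day 7, gave 2 interfollicular organoid libraries, 1 at passages 0 to 1 (early) and 1 at passages 3 to 6 (later), both with a Tgf-beta inhibitor. Follicle organoids with that inhibitor gave 3 early and 2 later libraries, and follicle organoids without it gave 2 early and 2 later libraries. Tissue gave 2 libraries each of hair follicles, a mixture of growing (anagen) and resting (telogen) ones, of interfollicular epidermis and of whole skin. The labels give no breed or age and do not say whether replicates are different dogs, so p-values measure only the spread between these libraries. In a bulk sample, fewer cells of a type and less RNA per cell cannot be told apart.

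Gene counts per library lay between 84439 and 4792577, with the lowest total in interfollicular epidermis replicate 2. The tissue labels were set beside marker lists as summed CPM (counts scaled to a common library size). Suprabasal epidermal markers summed to 1503 and 1932 CPM in follicles, against 12868 and 17088 CPM in interfollicular epidermis and 4016 and 4361 CPM in whole skin. Melanocyte markers summed to 577.4 and 1009 CPM in follicles, and to 96.6 CPM in interfollicular epidermis replicate 1, while replicate 2 was at 0. Outer root sheath markers summed to 4914 and 4006 CPM in follicles and to 1987 and 3416 CPM in interfollicular epidermis. Whole skin, at 5451 and 4421 CPM, overlapped the follicles in this list. Its marker SOX9 was at 0 in every tissue library but whole skin replicate 1. The differentiation files list 13 of the 31 hair genes, and the other 18 have no value there. After the filter on low counts, 28 of the 31 could be tested, and KRT71, KRT84 and KRTAP24-1 could not.

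**Figure D1:**
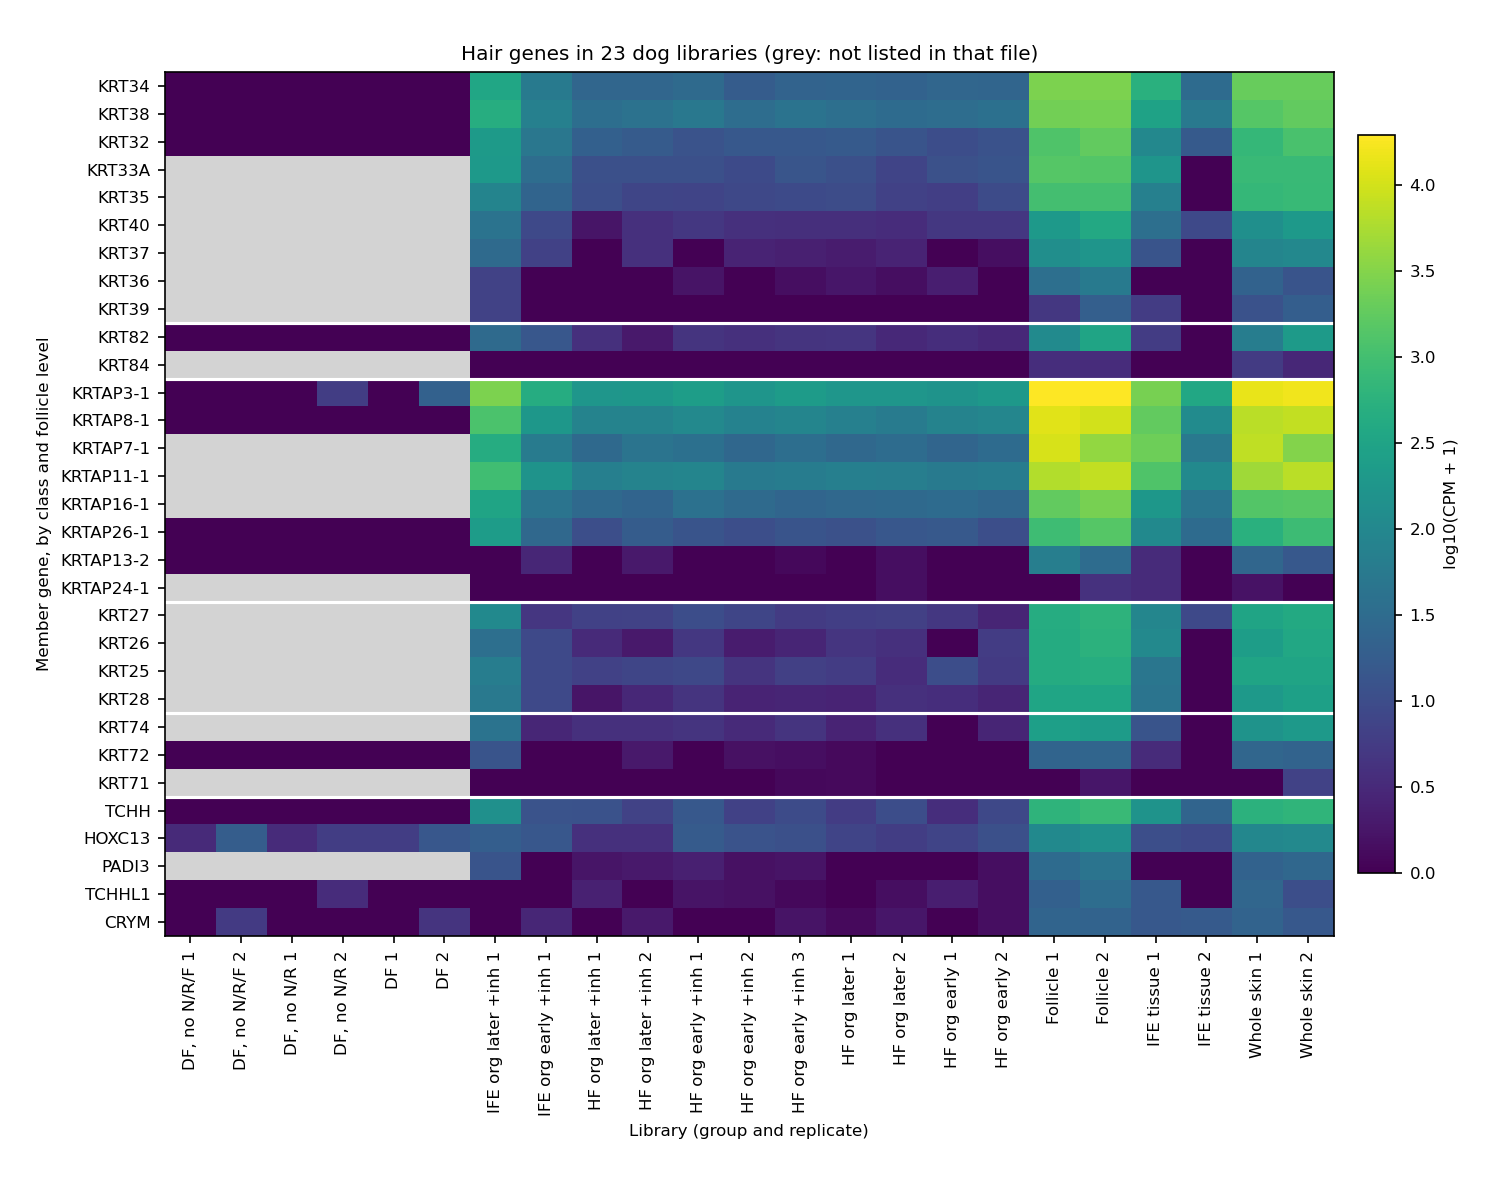
Heat map of log10(CPM + 1) for the 31 hair genes (rows, grouped by class with white lines) in 23 libraries (columns, with +inh for the Tgf-beta inhibitor and N/R/F for Noggin, R-Spondin-1 and Forskolin), where grey marks a gene that the file does not list. Follicle and whole skin libraries are the brightest columns, organoids are darker, and the differentiation libraries are the darkest, with HOXC13 and, in 2 of the 6, KRTAP3-1 above 0 among the few genes with a count.

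Hair transcripts made up a large part of the follicle libraries. The 31 genes held 6.98% and 6.30% of the gene counts in the follicle replicates, 1.25% and 0.136% in the interfollicular epidermis replicates, and 4.99% and 5.10% in the whole skin replicates. Scaled for composition, their summed level was 64052 and 59351 CPM in follicles, 9902 and 886.8 CPM in interfollicular epidermis, and 43458 and 46160 CPM in whole skin. The replicates were close in follicles and in skin, but interfollicular epidermis replicate 1 held 11.2-fold more than replicate 2. The same 2 epidermis libraries also differed in fibroblast markers, at 3589 and 1242 CPM, and in depth, at 328929 and 84439 counts. The part of these differences in the hair gene results was not tested.

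All 6 classes were higher in both follicle libraries than in both epidermis libraries. The type I hair keratins summed to 9300 and 10137 CPM in follicles, against 1231 and 108.0 CPM in interfollicular epidermis. The keratin-associated proteins summed to 51902 and 45624 CPM in follicles, against 8164 and 724.9 CPM in interfollicular epidermis. The type I inner root sheath keratins summed to 1652 and 1961 CPM in follicles, against 287.2 and 7.71 CPM in interfollicular epidermis. In each class the second epidermis replicate was the lowest of the 6 tissue libraries.

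**Figure D2:**
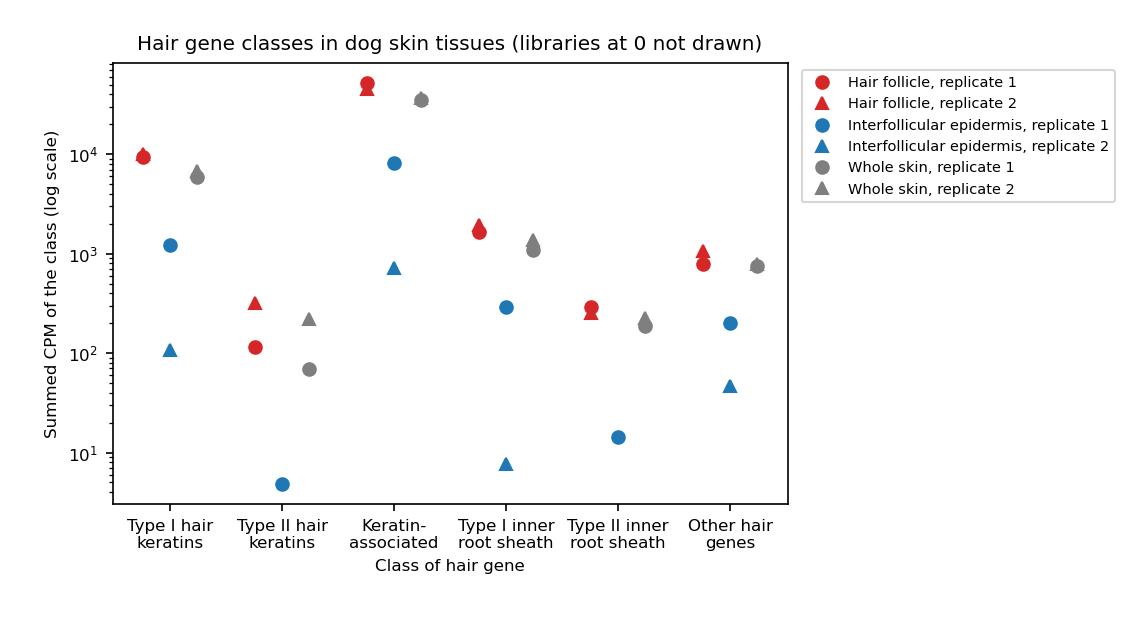
Summed CPM of each class of hair gene (log scale) in the follicle, interfollicular epidermis and whole skin libraries, with a circle for replicate 1 and a triangle for replicate 2; classes at 0 are not drawn. Follicles lie above epidermis in every class, and the 2 epidermis replicates lie far apart.

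Follicles were set against interfollicular epidermis to ask how the sources of the organoids differ in these genes. Of the 28 tested hair genes, 23 were higher in follicles and 0 lower at an adjusted p under 0.05 (edgeR's quasi-likelihood test with Benjamini-Hochberg adjustment over 9888 genes), against 2.05% of all genes called higher. The median log2 fold change of the 28 was 3.72, or 3.58 with genes at 0 counts set to their bound, and the median of all genes was 0.21. Of all 31, 28 had both follicle libraries above both epidermis libraries, with no overlap. The share of all genes separated in this way was not worked out, so this count is a description only.

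Of the type I hair keratins, 8 of 9 tested were called higher in follicles. KRT32, a keratin of the hair cuticle, stood at 1290 and 1794 CPM in follicles and 99.0 and 15.4 CPM in interfollicular epidermis. It was higher by 4.54 ± 0.53 (log2, SE, edgeR adjusted p = 0.000165). The groups were far apart, and the 2 epidermis libraries were further from each other than the 2 follicle libraries. KRT35, which appears early in the hair matrix and cortex, stood at 1021 and 1037 CPM in follicles and at 72.4 and 0 CPM in interfollicular epidermis. The cortex keratin KRT34 stood at 2750 and 2752 CPM in follicles and 535.9 and 30.9 CPM in interfollicular epidermis. Both follicle replicates were nearly level for these genes, and the log2 fold changes were 4.48 ± 0.61 for KRT35 and 3.19 ± 0.66 for KRT34.

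KRT38, another cortex keratin, stood at 2429 and 2515 CPM in follicles, against 299.3 and 54.0 CPM in interfollicular epidermis, a log2 change of 3.71 ± 0.53. KRT33A, also of the cortex, stood at 1428 and 1408 CPM in follicles, against 171.4 and 0 CPM in interfollicular epidermis. KRT40 stood at 212.1 and 381.9 CPM in follicles, against 36.2 and 7.71 CPM in interfollicular epidermis. All of these pairs of groups were separate. KRT37 was called at 4.09 ± 0.73, and KRT36, with 121 counts in follicles and 0 in epidermis, was at least 8.61-fold higher (3 counts over the group as the floor). KRT39 was not called (1.75, adjusted p = 0.547), with 3.93 and 18.8 CPM in follicles and 4.83 and 0 CPM in interfollicular epidermis, which overlap.

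Of the type II hair keratins, only KRT82, a partner keratin of the hair cuticle, could be tested. It stood at 111.8 and 318.7 CPM in follicles and at 4.83 and 0 CPM in interfollicular epidermis, a log2 change of 5.87 ± 0.91 (edgeR adjusted p = 0.000992). The follicle libraries themselves differed, with replicate 2 the higher. KRT84 stood at 2.62 and 2.51 CPM in follicles and at 0 in both epidermis libraries, too low for the test.

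Of the keratin-associated proteins, 6 of 7 tested were called higher in follicles. KRTAP3-1, a high-sulphur protein of the shaft, stood at 19169 and 19627 CPM in follicles and at 2537 and 370.1 CPM in interfollicular epidermis. KRTAP8-1, a protein rich in glycine and tyrosine, stood at 12775 and 10125 CPM in follicles and at 1837 and 115.7 CPM in interfollicular epidermis. The log2 fold changes were 3.72 ± 0.74 for KRTAP3-1 and 3.52 ± 0.72 for KRTAP8-1, and follicle and epidermis libraries did not overlap. KRTAP11-1 stood at 6401 and 7896 CPM in follicles and at 1289 and 108.0 CPM in interfollicular epidermis, a log2 change of 3.32 ± 0.68. KRTAP16-1 stood at 1832 and 2573 CPM in follicles and at 183.4 and 46.3 CPM in interfollicular epidermis, a log2 change of 4.14 ± 0.50. KRTAP26-1 was higher by 3.91 ± 0.51 and KRTAP13-2 by 4.65 ± 1.11, so the called members of this class shared a range of 3.32 to 4.65.

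KRTAP7-1, another protein rich in glycine and tyrosine, missed the threshold. It stood at 10758.5 and 3934 CPM in follicles and at 2204 and 54.0 CPM in interfollicular epidermis, a log2 change of 2.68 ± 0.88 (edgeR adjusted p = 0.125). The groups did not overlap, but replicate 1 was above replicate 2 in both. Whole skin showed the same order, at 7624 CPM in replicate 1 and 3159 CPM in replicate 2.

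All 4 type I inner root sheath keratins were called higher in follicles. KRT25 stood at 438.6 and 464.4 CPM in follicles and at 48.3 and 0 CPM in interfollicular epidermis, a log2 change of 3.81 ± 0.59. KRT27 stood at 455.6 and 589.9 CPM in follicles and at 91.7 and 7.71 CPM in interfollicular epidermis, a log2 change of 3.12 ± 0.54. KRT28 was higher by 3.48 ± 0.57 and KRT26, which in humans marks the cuticle of the sheath, by 2.97 ± 0.69. Their follicle and epidermis libraries were separate for each of the 4 genes. Of the type II partners, KRT74 was called, at 265.8 and 226.0 CPM in follicles and 12.1 and 0 CPM in interfollicular epidermis (4.79 ± 0.60). KRT72 stood at 23.6 and 23.8 CPM in follicles and at 2.41 and 0 CPM in interfollicular epidermis, and at 3.64 ± 1.13 it was not called (adjusted p = 0.106). KRT71 had a single count in the follicle libraries together.

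Among the other genes, TCHH, HOXC13 and PADI3 were called. HOXC13 stood at 106.1 and 141.7 CPM in follicles and at 9.66 and 7.71 CPM in interfollicular epidermis, a log2 change of 3.75 ± 0.60. TCHH stood at 614.1 and 816.6 CPM in follicles and at 161.7 and 23.1 CPM in interfollicular epidermis, a log2 change of 2.78 ± 0.58. PADI3 had 94 counts in follicles and 0 in epidermis, at least 6.77-fold higher. CRYM, a binding protein of thyroid hormone, was nearly level, at 23.6 and 21.95 CPM in follicles and 14.5 and 15.4 CPM in interfollicular epidermis (0.62 ± 0.81, adjusted p = 0.763). TCHHL1, a relative of trichohyalin, was not called either (1.37, adjusted p = 0.469).

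A single library decided 6 of the 23 calls. Without epidermis replicate 2, KRTAP3-1 was not called (2.94, edgeR adjusted p = 0.0639), nor were TCHH (2.15), KRT26 (2.28) and KRTAP13-2 (4.26). Without follicle replicate 2, TCHH (2.59), KRT26 (2.78), KRT36 and PADI3 were not called, and without follicle replicate 1, KRT26 (3.17) and KRTAP13-2 (4.04) were not called. Without epidermis replicate 1, KRT36, PADI3 and KRTAP13-2, all at 0 counts in replicate 2, were not called, and DESeq2 did not call KRTAP13-2 (4.49, adjusted p = 0.101).

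Whole skin held somewhat less of the hair genes than isolated follicles, and no difference was called. Their sum was 43458 and 46160 CPM in whole skin, below both follicle libraries at 64052 and 59351 CPM. No gene of any kind was called, so the lack of calls is not particular to hair genes. Follicles against whole skin gave 0 calls among the 28 tested genes by edgeR, 1 at an unadjusted p under 0.05 and 0 by DESeq2, where 0.00% of all genes were called. The median log2 change was 0.51, with 27 of 28 above 0. KRT32 stood at 1290 and 1794 CPM in follicles and at 722.4 and 1128 CPM in whole skin (0.74 ± 0.44, edgeR adjusted p = 1). The 28 changes ran between -0.18 and 1.43.

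Interfollicular epidermis held less of these genes than whole skin. Of the 28 tested, 20 were lower and 0 higher in epidermis by edgeR, against 1.40% of all genes called lower, with a median of -3.15, or -3.04 with bounds, and a median of -0.20 over all genes. KRT32 was lower by 3.80 on the log2 scale (-3.80 ± 0.52, 99.0 and 15.4 CPM in epidermis, 722.4 and 1128 CPM in whole skin). KRT74 was lower at -4.33 ± 0.61, KRTAP16-1 at -3.53 ± 0.49 and KRT25 at -3.34 ± 0.59. The count fell to 12 without epidermis replicate 2, to 12 without skin replicate 1 and to 9 without skin replicate 2. Of the 20 genes, 7 kept their call in every setting tried. This comparison shares its epidermis libraries with the follicle comparison.

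In a list of 50 other genes of the hair matrix, sheath and coat, 47 were in the files and 32 were tested, of which 8 were higher in follicles than in interfollicular epidermis and 0 lower. GPRC5D, a receptor of differentiating hair cells, stood at a mean of 1272 CPM in follicles and 117.0 CPM in epidermis (3.31 ± 0.48), the hair cuticle protein S100A3 at 1466 and 81.6 CPM (3.99 ± 0.57), and LRRC15 at 297.2 and 26.8 CPM (3.16 ± 0.47). Of the 10 hair entries with provisional names, 9 were tested and 8 were higher in follicles, all but KRTAP25-1 (1.51, adjusted p = 0.265). The separate values of hair keratins and keratin-associated proteins that resemble each other closely are uncertain, since the sharing of reads between them is not stated in the labels, and 8 of the 31 genes hold fractional counts in some library.

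Follicle organoids in expansion medium were set against follicles to compare the level of these genes in culture and in the source tissue. All 28 tested hair genes were lower in the 9 organoid libraries than in the 2 tissue libraries by edgeR, against 19.0% of all genes called lower. The median log2 change was -6.71, or -6.70 with bounds, while the median of all genes was 0.00. The summed hair transcripts stood between 485.4 and 702.3 CPM in the organoids, against 64052 and 59351 CPM in follicles, so the organoid mean was 0.89% of the tissue mean. No organoid library came near either tissue library. Whether the hair counts of an organoid library stem from its own cells, from tissue carried into the culture or from reads of another library was not tested, and this limit holds for every organoid value of these genes.

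The hair keratins and keratin-associated proteins were lower by similar amounts. KRTAP3-1 stood between 161.3 and 244.9 CPM in follicle organoids, with a median of 181.2 CPM, against 19169 and 19627 CPM in follicles, a log2 change of -6.69 ± 0.46. KRT38 stood between 30.5 and 51.8 CPM in follicle organoids, with a median of 36.6 CPM, against 2429 and 2515 CPM in follicles, a log2 change of -6.05 ± 0.32. KRT32 stood between 9.33 and 19.9 CPM in follicle organoids, with a median of 14.4 CPM, against 1290 and 1794 CPM in follicles, a log2 change of -6.81 ± 0.31. None of these ranges overlapped, and the 9 organoid libraries were close to each other for every one of them. Over the classes, the changes ran from -7.21 to -6.05 for type I hair keratins, from -7.86 to -6.28 for keratin-associated proteins and from -7.59 to -6.38 for type I sheath keratins. KRT39 had 0 counts in all 9 organoid libraries and was at least 71.9-fold lower, though DESeq2 did not call it (adjusted p = 0.379).

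HOXC13 had the smallest of the 28 changes. It stood between 2.94 and 16.1 CPM in follicle organoids, with a median of 6.67 CPM, against 106.1 and 141.7 CPM in follicles, a log2 change of -4.22 ± 0.29 (edgeR adjusted p = 1.81e-10). All 9 organoid libraries held counts of it, from 3 to 45. CRYM at -5.48 ± 0.59 and TCHHL1 at -5.55 ± 0.59 came next, whereas TCHH stood at -6.55 ± 0.37 and PADI3 at -6.41 ± 0.46. No test compared these changes with each other.

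**Figure D3:**
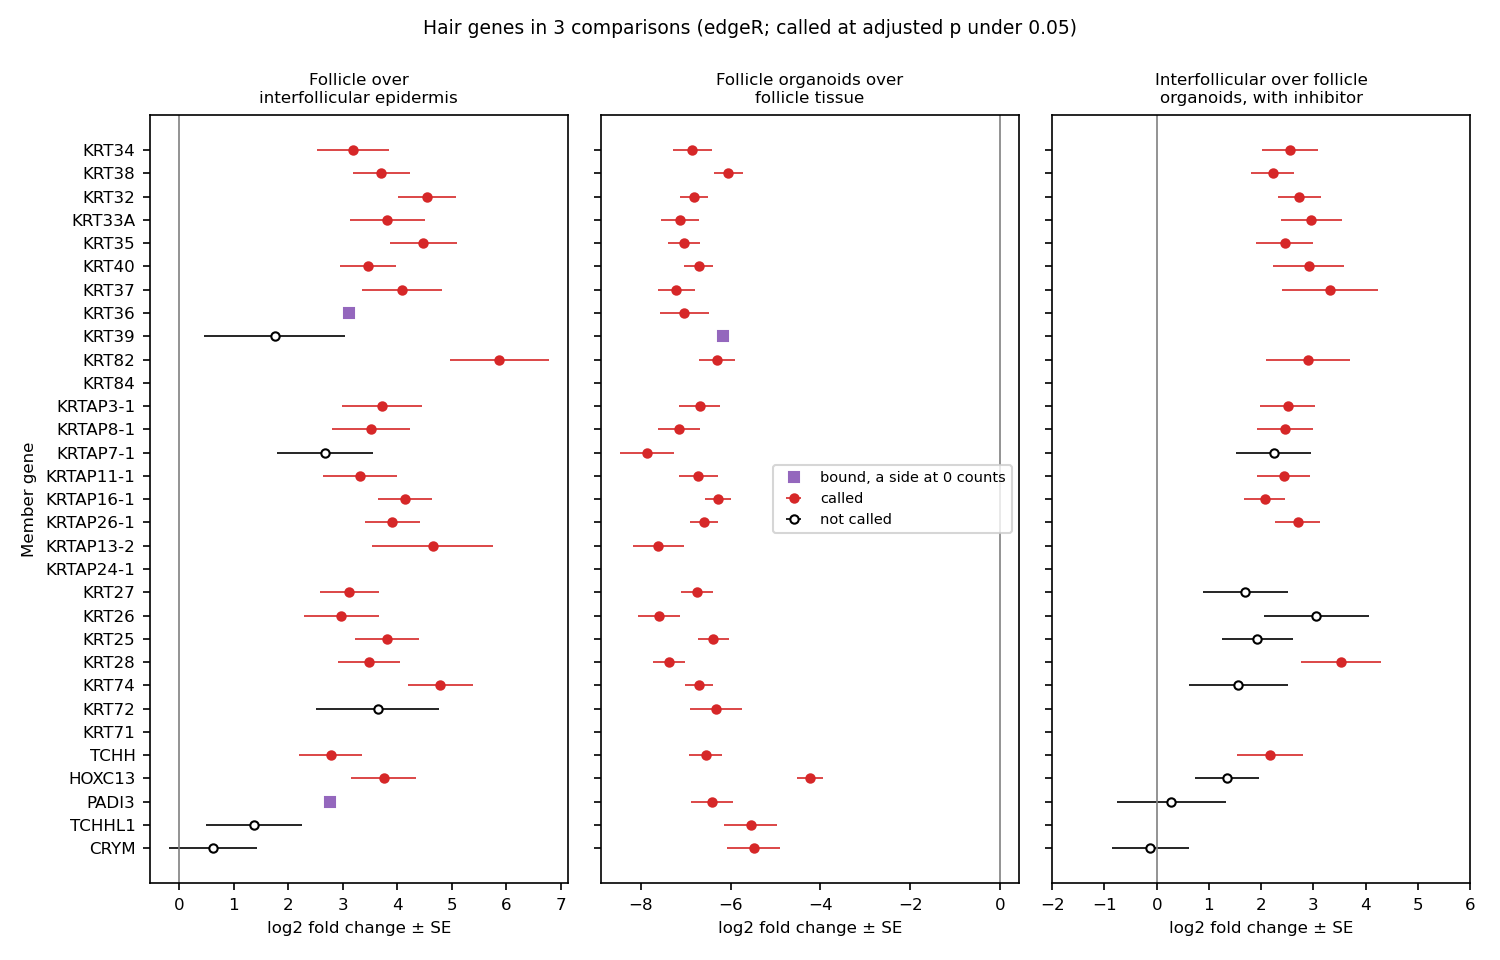
Log2 fold changes (± SE, edgeR) of the hair genes in follicles over interfollicular epidermis, follicle organoids over follicle tissue, and interfollicular over follicle organoids grown with the inhibitor; filled points passed an adjusted p under 0.05, squares are bounds for genes with 0 counts on a side, and genes not tested or with an SE over 3 are not drawn. Called genes lie to the right of 0 in both outer panels, and every drawn gene lies to the left of 0 in the middle panel.

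Of the 32 tested genes in the hair matrix list, 23 were lower in follicle organoids than in follicles and 0 higher. GPRC5D (13 CPM in organoids, 1272 CPM in follicles, -6.60 ± 0.30), LRRC15 (-6.57 ± 0.29) and SELENBP1 (-5.86 ± 0.31) had the smallest p. All 9 tested entries with provisional names were lower, between -7.36 and -6.04. SOX21, a transcription factor of the hair cuticle that was picked out after its values were seen, stood at a mean of 84.8 CPM in organoids and 144.9 CPM in follicles (-0.81 ± 0.27, adjusted p = 0.0308).

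The hair counts in follicle organoids followed depth. The 31 genes took 0.0437 to 0.0586% of the counts in the 9 libraries, a 1.34-fold range, while their depth ran from 730330 to 4792577 counts. Between 20 and 28 of the 31 genes had a count in a given library. Most lists of other skin cells were lower in the same libraries than in follicles. Fibroblast markers summed to between 47.8 and 484.0 CPM, against 7144 and 4254 CPM in follicles, and immune markers to between 1.99 and 10.8 CPM, against 243.5 and 122.9 CPM in follicles. All 5 markers of each list were listed, with the immune marker PTPRC at 0 in all 9 organoid libraries and the fibroblast marker LUM at 0 in 4. Melanocyte markers, 3 of 5 of them listed, summed to between 5.76 and 262.7 CPM, the highest in the early replicate 1 without inhibitor, against 577.4 and 1009 CPM in follicles. Smooth muscle markers summed to between 24.8 and 118.7 CPM in organoids, against 1414 and 1218 CPM in follicles. Endothelial markers summed to between 2.69 and 6.76 CPM in organoids, against 48.4 and 40.8 CPM in follicles. Sebaceous markers were nearer, at 279.2 to 689.4 CPM in organoids and 1013 and 1860 CPM in follicles, and adipocyte markers overlapped, at 75.5 to 656.2 CPM in organoids and 595.7 and 1090 CPM in follicles. Basal keratinocyte markers were the reverse, at 44148 to 73388 CPM in organoids and 8953 and 8991 CPM in follicles. So were outer root sheath markers, at 7658 to 26606 CPM in organoids and 4914 and 4006 CPM in follicles. Of this list, SOX9 was at 0 in both follicle libraries and in some of the organoid libraries. Suprabasal epidermal markers overlapped, at 827.9 to 13647 CPM in organoids and 1503 and 1932 CPM in follicles. The part of these cells in the low hair values was not tested.

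**Figure D4:**
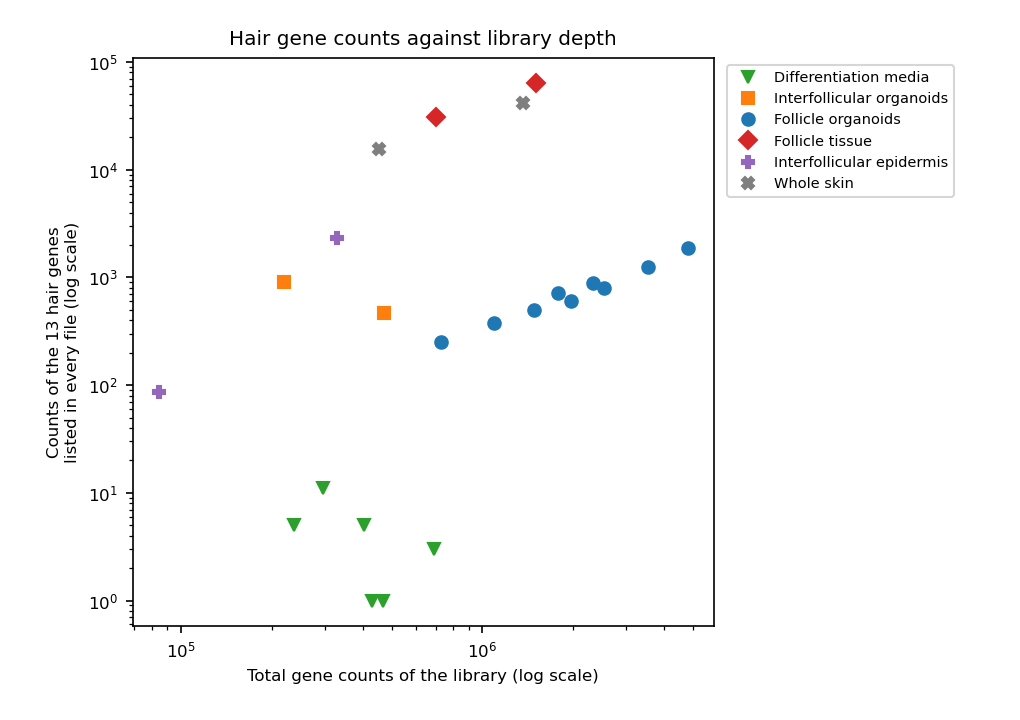
Counts of the 13 hair genes listed in every file (log scale) against the total gene counts of the library (log scale), 1 point per library. Follicle organoids lie along a rising line, from 254 to 1861 counts, differentiation libraries lie at 1 to 11 counts, and tissue and interfollicular organoids lie above the line for their depth.

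The mixture of hair transcripts in the organoid libraries was set beside that of tissue, with the source of the organoid hair counts untested as above. KRTAP7-1 made up 4.76 to 7.69% of the hair counts in the 11 organoid libraries in expansion medium. In follicles it made up 16.8% in replicate 1 and 6.63% in replicate 2, in interfollicular epidermis 22.3% and 6.09%, and in whole skin 17.5% and 6.84%. The organoid shares of KRTAP7-1 thus lay near replicate 2 of each tissue and below every replicate 1. KRT82 ran the other way in follicles, at 0.175% in replicate 1 and 0.537% in replicate 2, and in whole skin, at 0.15% and 0.468%. It did not do so in interfollicular epidermis, at 0.0488% in replicate 1 and 0 in replicate 2. The 11 organoid libraries lay between 0.175 and 1.07%, so the lowest was level with follicle replicate 1. Not every gene lay near a follicle replicate. KRT38 made up 5.76 to 7.38% in the 11 organoid libraries, against 3.79% and 4.24% in follicles. HOXC13 made up 0.231 to 2.33% in organoids, against 0.166% and 0.239% in follicles. Over the 23 genes with at least 100 follicle counts, log10 counts of 10 of the 11 organoid libraries lay closer to follicle replicate 2 (Pearson's r across genes 0.873 to 0.985) than to replicate 1 (0.846 to 0.953). Genes are not independent replicates, and the same 2 follicle libraries stand in every value.

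**Figure D5:**
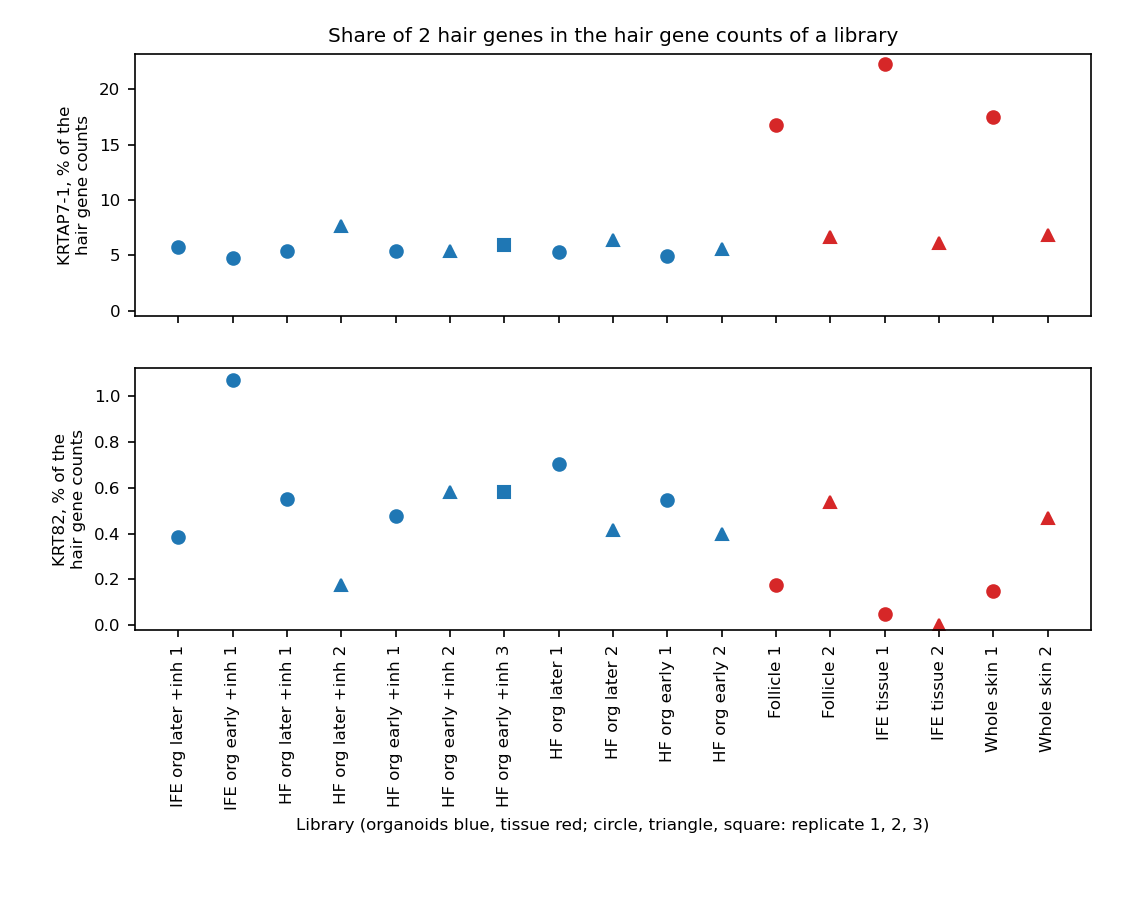
Share of KRTAP7-1 and KRT82 in the counts of the 31 hair genes (%), for 11 organoid libraries in expansion medium (blue) and 6 tissue libraries (red), with a circle, triangle and square for replicates 1, 2 and 3. KRTAP7-1 stands at 16.8% or more in each tissue replicate 1 and at 7.69% or less in all other libraries.

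Within follicle organoids, neither the inhibitor nor the passage moved these genes past the threshold. With against without the Tgf-beta inhibitor, edgeR called 0 of 28 (1 at an unadjusted p under 0.05, 0 by DESeq2), where 2.68% of all genes were called in either direction, and the median change was 0.15. The summed level was 494.3 to 702.3 CPM in the 5 libraries with inhibitor and 485.4 to 548.2 CPM in the 4 without it, so the groups overlapped. PADI3 was the gene at the unadjusted threshold, at 2.13 ± 0.81 (edgeR adjusted p = 0.214), on 0 to 3 counts a library. Later against early passages likewise gave 0 of 28 calls (1 at an unadjusted p under 0.05, 0 by DESeq2), where 0.354% of all genes were called, with a median of -0.06. With only the groups compared fitted, 15 hair genes passed the filter on low counts in both comparisons. The lack of calls therefore says little on the others, and KRT39 had 0 counts in all 9 libraries.

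HOXC13 was the gene at the unadjusted threshold between passages. In the later passages it stood at 2.94 and 2.99 CPM with inhibitor and at 6.48 and 5.01 CPM without it. In the early passages it stood at 16.1, 11.5 and 10.3 CPM with inhibitor and at 6.67 and 10.03 CPM without it. Each of the 4 later libraries lay below all 5 early ones, and the log2 change of -1.31 ± 0.37 did not pass (edgeR adjusted p = 0.206). In the hair matrix list, 4 of 32 were higher with the inhibitor and 0 lower: TGM1, a transglutaminase of the cornified envelope (3.56 ± 0.62), the epithelial repressor OVOL1 (1.35 ± 0.28), PRDM1 (2.09 ± 0.50), whose groups overlapped, and CST6.

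Interfollicular organoids were set against follicle organoids grown with the same inhibitor to ask whether origin shows in these genes. The 2 interfollicular libraries held 7817 CPM (later) and 1253 CPM (early) of hair transcripts, against 494.3 to 702.3 CPM in the 5 follicle organoid libraries. Both were above all 5, and the later library held 6.24-fold more than the early one. Each stands alone in its passage, so the fit takes their spread from the replicated groups. Their depths were 219881 counts (later) and 471958 counts (early).

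By that fit, 15 of 28 hair genes were higher in interfollicular organoids and 0 lower, against 5.86% of all genes called higher, with a median of 2.34 and a median of -0.32 over all genes. KRT32 stood at 216.5 CPM (later) and 50.01 CPM (early) in interfollicular organoids, and between 11.4 and 19.9 CPM in follicle organoids with inhibitor, a log2 change of 2.73 ± 0.41 (edgeR adjusted p = 0.00016). KRTAP3-1 stood at 2766 CPM (later) and 454.0 CPM (early) in interfollicular organoids, and between 171.5 and 244.9 CPM in follicle organoids with inhibitor, a log2 change of 2.51 ± 0.53. KRT28 stood at 54.1 CPM (later) and 7.69 CPM (early) in interfollicular organoids, and between 0.736 and 3.36 CPM in follicle organoids with inhibitor, a log2 change of 3.53 ± 0.77. For these genes both interfollicular libraries were above all follicle organoids, and the early one was much the nearer.

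The called genes were 7 type I hair keratins, KRT82, 5 keratin-associated proteins, KRT28 and TCHH. HOXC13 was not called (1.34 ± 0.61, adjusted p = 0.276), at 18.0 and 13.5 CPM in interfollicular organoids. TCHH was called at 2.17 ± 0.63, although its early interfollicular value of 11.5 CPM lay within the follicle organoid range. In a fit with early organoids only, 0 of the 28 were called and the median was 1.07, and with later organoids only, 18 were called and the median was 3.78. The later library was also the higher of the 2 in markers of other cells: fibroblast markers summed to 679.4 CPM in the later and 128.9 CPM in the early library, immune markers to 84.2 and 11.5 CPM, and melanocyte markers to 72.2 and 25.0 CPM. Their part in the hair values was not tested. In the hair matrix list S100A3 (2.65), GPRC5D (2.20) and LRRC15 (2.63) were called higher in interfollicular organoids.

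The order of origins in organoids thus ran against the order in tissue, and the difference itself was tested. The follicle minus epidermis log2 difference was larger in tissue than in organoids with inhibitor for 21 of 28 hair genes and smaller for 0 (edgeR), against 3.49% of all genes called in that direction. The median difference was 6.00 for the hair genes and -0.09 for all genes. KRT32 differed by 7.27 ± 0.68 (edgeR adjusted p = 9.49e-06), KRTAP26-1 by 6.61 ± 0.67 and KRTAP16-1 by 6.21 ± 0.63. With early organoids only, 11 were called, among them these 3, and with later organoids only, 24.

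Interfollicular organoids against their own tissue gave no call. Of the 28 genes, 0 were called by edgeR, 5 reached an unadjusted p under 0.05 and 0 were called by DESeq2, where 11.2% of all genes were called in either direction. The organoids held 7817 CPM (later) and 1253 CPM (early) of hair transcripts, against 9902 and 886.8 CPM in the tissue replicates, so the groups overlapped. Without tissue replicate 1, 4 genes were called higher in organoids (KRT32, KRT33A, KRT35 and KRTAP8-1), and without tissue replicate 2, 7 were called lower (KRT26, KRT27, KRT34, KRTAP7-1, KRTAP8-1, KRTAP11-1 and TCHH). KRTAP8-1 was thus called in both directions, at 2.04 without replicate 1 (edgeR adjusted p = 0.0297) and -1.96 without replicate 2 (adjusted p = 0.00607). The direction of this comparison was thus set by which tissue library was kept. KRTAP7-1 had the smallest p with both kept, at 451.0 and 59.6 CPM in organoids and 2204 and 54.0 CPM in tissue (-2.81 ± 0.91, edgeR adjusted p = 0.0546).

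Differentiation media were set against expansion medium at the same passage, with no inhibitor named in the labels of either. Of the 13 hair genes listed in the differentiation files, 7 were lower and 0 higher in the 6 differentiation libraries than in the 2 expansion libraries by edgeR, against 10.1% of all genes called lower. With only the groups compared fitted, 3 of the 7 (KRT38, KRTAP3-1 and KRTAP8-1) were tested and all 3 were called, while KRT32, KRT34, KRTAP26-1 and TCHH did not pass the filter on low counts. The median log2 change was -6.03, or -2.47 with genes at 0 set to their bound, and -0.14 over all genes. The 13 genes together had 1 to 11 counts per differentiation library, against 1249 and 805 counts per expansion library. The differentiation libraries held 235971 to 689816 counts in all, against 3545730 and 2530484 in expansion medium. Their files also list a different set of entries, and the part of that in the change was not tested.

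KRTAP8-1 had 0 counts in all 6 differentiation libraries, against 72.7 and 59.3 CPM in expansion medium, at least 52.5-fold lower (3 counts over the group). KRT38 also had 0 counts, against 36.6 and 30.5 CPM, at least 26.7-fold lower, as did KRT34 (at least 17.8-fold) and KRT32 (at least 10.9-fold). KRTAP26-1 was at least 9.46-fold and TCHH at least 5.56-fold lower, although TCHH was not called without expansion replicate 2 (-5.48, adjusted p = 0.0503). KRTAP3-1 kept counts in 2 of the 6 libraries, at 20.6 and 4.94 CPM, against 178.4 and 181.2 CPM in expansion medium (-7.13 ± 0.84). All 7 called genes lay below both expansion libraries in every differentiation library.

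HOXC13 alone had a count in each differentiation library. It stood at 2.29 and 17.1 CPM without Noggin, R-Spondin-1 and Forskolin, and at 2.41 and 4.94 CPM without Noggin and R-Spondin-1. In the differentiation medium with none of these named as left out it stood at 4.97 and 13.7 CPM, and in expansion medium at 6.48 and 5.01 CPM. The differentiation values rest on 1 to 4 counts a library, the groups overlapped, and the change was 0.08 ± 0.51 (edgeR adjusted p = 0.991). KRT82 had 0 counts in all 6 differentiation libraries, against 3.66 and 2.09 CPM in expansion medium, and was not called (adjusted p = 0.0687). Of the lists of other skin cells, 3 were also at or near 0 in these libraries, with immune markers at 0 CPM in all 6, melanocyte markers at 0 to 2.47 CPM and fibroblast markers at 0 to 25.7 CPM, against 6.48 and 6.26, 7.89 and 7.93, and 59.2 and 50.5 CPM in expansion medium. The differentiation files list 3 of the 5 immune, 2 of the 5 melanocyte and all 5 fibroblast markers. Other lists were not near 0: smooth muscle markers (3 of 5 listed) summed to 41.1 to 697.9 CPM in differentiation media, against 24.8 and 104.0 CPM in expansion medium, and endothelial markers (2 of 5 listed) to 8.28 to 33.7 CPM, above the 6.76 and 5.01 CPM of expansion medium. Sebaceous markers (3 of 5 listed) stood at 151.8 to 269.8 CPM in differentiation media, against 377.6 and 334.5 CPM in expansion medium, and adipocyte markers (4 of 5 listed) at 57.8 to 256.9 CPM, against 127.4 and 656.2 CPM. The part of these cells in the change was not tested. In the hair matrix list, 8 of 32 were lower in differentiation media, with SOX21 (-2.51 ± 0.33), GPRC5D (-5.59 ± 0.97) and S100A3, at least 9.25-fold lower, having the smallest p.

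Between the differentiation media no hair gene was called. Leaving out Noggin and R-Spondin-1 gave 0 of 13 calls by edgeR (0 at an unadjusted p under 0.05, 0 by DESeq2), and leaving out Forskolin as well gave 0 of 13 (0 and 0), where 0.00% of all genes were called in each. With at most 11 counts of these genes a library, differences between the media were not detectable at this depth. With only the groups compared fitted, 0 of the 13 passed the filter on low counts in either comparison.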

How the data were processed

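The 23 deposited files hold a count per gene entry, in part with a fraction, and these values were read as estimated counts that the authors made from their alignments and left unscaled. They were rounded to whole numbers. Per the submitters' processing notes, the build was CanFam3.1 and the aligner named is BWA 0.6.2-r126. The annotation, the counting tool and how molecular barcodes were handled are not stated in the labels. Entries that name no gene held 0.461 to 2.158% of a library and were left out. Locus names were matched to symbols in a RefSeq table of another dog assembly, used for names only.

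All 23 libraries entered 1 model, with 12 group means, in edgeR 4.0.16 in R 4.3.3 (quasi-likelihood test, TMM scaling, filterByExpr, Benjamini-Hochberg over all 9888 genes tested, or 9732 with differentiation libraries, called at an adjusted p under 0.05). CPM values use TMM-scaled library sizes. A fold against a side at 0 is a bound computed from 3 counts over the group. DESeq2 1.42.0, other scalings, no filter, fractions kept, fewer libraries, a replicate block and leaving out each library were the alternatives. The fits were tested on simulated data. The hair genes, the hair matrix list and the marker lists were chosen with earlier results of these data known. The genes named with values are, in each class, up to 6 with the highest tissue level, those called between cultures or at 20 CPM or more in a culture, and up to 3 listed hair matrix genes per comparison and direction by smallest p.

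The labels do not pair libraries by replicate number. In differentiation media, same-numbered libraries deviated together (r = 0.478 to 0.587 across 4571 genes, 3 pairs of groups, 2 numbers). Replicate 2 was also the shallower library in each of these groups, at 294556 against 689816, 405354 against 431103 and 235971 against 468884 counts. Whether same-numbered differentiation libraries share a source was not tested. Over the same genes the values were lower in tissue (0.053 to 0.145) and in expansion libraries (-0.290 to 0.131). Over the 23 hair genes of the mixture comparison, tissue libraries lay closer to the follicle library of their own number. Whole skin replicate 1 had r = 0.995 with follicle replicate 1 and 0.973 with replicate 2. Skin replicate 2 had 0.967 and 0.991, epidermis replicate 1 had 0.974 and 0.951, and epidermis replicate 2 had 0.826 and 0.838. Whether same-numbered tissue libraries share a source was not tested.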

Additional observations from a re-analysis of the deposited data

Results flagged for a closer look

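For 21 hair genes the follicle minus interfollicular epidermis difference was tested to be larger in tissue than in organoids grown with the inhibitor (edgeR, adjusted p under 0.05, against 3.49% of all genes called in that direction). On the log2 scale this difference of differences was 8.77 for KRT82, 7.41 for KRT37, 7.27 for KRT32, 6.93 for KRT35, 6.78 for KRT33A, 6.36 for KRT40, 5.93 for KRT38 and 5.75 for KRT34 among the hair keratins. It was 6.61 for KRTAP26-1, 6.23 for KRTAP3-1, 6.21 for KRTAP16-1, 5.98 for KRTAP8-1, 5.75 for KRTAP11-1 and 4.92 for KRTAP7-1 among the keratin-associated proteins. It was 7.02 for KRT28, 6.35 for KRT74, 6.03 for KRT26, 5.74 for KRT25 and 4.82 for KRT27 among the inner root sheath keratins, and 5.10 for HOXC13 and 4.94 for TCHH. Of these 21 genes, 11 were also called with early organoids only. The organoid side rests on 2 interfollicular libraries, 1 per passage, and the tissue side on 2 epidermis libraries that differ 11.2-fold in summed hair transcripts.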

How the results depend on the processing

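Of the hair genes, 1 was called in opposite directions between settings: KRTAP8-1 in interfollicular organoids against epidermis, at 2.04 without epidermis replicate 1 and -1.96 without replicate 2. Follicles against epidermis called 19 to 21 hair genes when a library was left out and 22 to 24 otherwise (23 in the main fit, 17 of these in every setting). Organoids against follicle tissue called 27 to 30. By library totals, the all-gene median was -0.10 in place of 0.21 between follicles and epidermis, and -0.70 in place of -0.14 between interfollicular organoids and epidermis, with no call of a hair gene turned round. Over all genes, the split of higher and lower calls by TMM, and by library totals in its place, was 203 and 73 against 145 and 143 for follicles and epidermis, 16 and 138 against 37 and 107 for epidermis and skin, 895 and 1876 against 598 and 2207 for follicle organoids and follicles, 667 and 445 against 389 and 1098 for interfollicular organoids and epidermis, 190 and 75 against 134 and 115 for the inhibitor, and 345 and 44 against 303 and 114 for the test of the difference.

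Epidermis against whole skin fell from 20 hair genes to 13 with only the groups compared fitted, and to 9 to 18 without a single library. Interfollicular organoids against epidermis moved from 0 to 1 (size factors, replicate block, or the 17 tissue and expansion libraries alone), 2 (no filter), 3 (library totals), 4 to 7 without a tissue library, and 2 with early organoids only. Interfollicular against follicle organoids fell from 15 to 0 with early organoids only (13 to 15 without a library), and the test of the difference from 21 to 11. Differentiation against expansion fell from 7 to 3 with only the groups compared fitted, where the other 4 did not pass the filter on low counts. The cause of the other moves was not tested, and the early and later fits were chosen after seeing the data. The replicate block otherwise changed the counts to 19 (epidermis against skin) and 14 (interfollicular against follicle organoids), and called 0 between the differentiation media, as without it.

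Depth limits the hair genes most in epidermis replicate 2, where 3 counts correspond to 23.1 CPM, in the later interfollicular organoid library (18 CPM) and in differentiation media (4.97 to 12.8 CPM). These floors cover counting error only.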
